A study of Homo sapiens with 4 samples.

Results

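The amino acid transporter genes of MV4-11 cells were examined after knockdown of CEBPG, a leucine-zipper transcription factor of the CEBP family. MV4-11 is a human AML cell line that carries an MLL-AF4 fusion and an internal tandem duplication of FLT3. RNA-seq was available for 2 libraries with the control hairpin sh-NC and 2 with sh-CEBPG#3, the latter in the lentiviral vector pLKO.1-puro. The knockdown rests on 1 hairpin, and the labels do not say whether the libraries of a group come from separate infections. The genes were taken by name, as every gene of the SLC1, SLC3, SLC6, SLC7, SLC36, SLC38 and SLC43 families in the deposited table. This gave 30 genes with 65 RefSeq transcripts, out of 16490 genes with values. RefSeq lists 60 human genes under these names, and the other 30 were not analysed here.

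Cells take up amino acids through membrane carriers that differ in substrate and in the ion or amino acid they exchange. The SLC7 light chains do the transport of a heterodimer, while an SLC3 heavy chain brings the pair to the plasma membrane. The SLC1, SLC6, SLC36, SLC38 and SLC43 carriers work without a heavy chain, and some of them act at the lysosome. The transcription factor ATF4 turns on several of these carriers when amino acids are short, and CEBPG is known as a dimer partner of ATF4.

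Values are FPKM (fragments counted per transcript length and per amount of mapped reads), summed over the RefSeq transcripts of a gene. They are scaled to transcript length, so that levels of different genes may be set side by side. Changes are log2 fold changes of FPKM + 1, sh-CEBPG#3 over sh-NC, a scale on which changes of low genes look smaller than they are. A gene is said to have risen or fallen where its Benjamini-Hochberg adjusted p from limma, taken over all 12142 genes tested, was under 0.05. The deposited values carry no read counts, so the depth of the libraries is unknown. The FPKM totals ranged from 364353 to 389766 per library. Across genes, Pearson's r was 0.993 within sh-NC, 0.994 within sh-CEBPG#3 and 0.962 to 0.964 between libraries of different groups. CEBPG itself had 30.4 and 33.6 FPKM in sh-NC and 19.2 and 17.1 FPKM in sh-CEBPG#3 cells. Its log2 fold change came to -0.78 (standard error 0.09, adjusted p = 8.88e-05 in limma), so 56.8% of the control level remained.

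Of 13 myeloid marker genes, 12 were listed, among them CD33, FLT3, MPO and SPI1, and their summed level was 1186 and 1288 FPKM in sh-NC and 3845 and 3668 FPKM in sh-CEBPG#3 cells. Of the 10 tested, 6 rose and 1 fell (CEBPA), against 18.5% and 23.8% of all genes tested. CD14 and KIT were under the filter and ANPEP was not analysed here. LYZ, at 567 and 610 FPKM in sh-NC and 3126 and 2982 FPKM in sh-CEBPG#3 cells, made up most of the higher sum. Of 15 markers of T, B, red, epithelial, fibroblast and endothelial cells, 9 were not analysed here, and the summed level of the other 6 was 31.7 and 35.7 FPKM in sh-NC and 60.5 and 57.2 FPKM in sh-CEBPG#3 cells. Of these, 4 were tested, and 2 rose (PECAM1 and KRT8) and 0 fell, against the same shares of all genes. PECAM1 made up most of this sum, with 18.5 and 21.8 FPKM in sh-NC and 43.4 and 40.8 FPKM in sh-CEBPG#3 cells. The part of these marker changes in the results below was not tested. In bulk RNA, fewer cells of a type and less RNA per cell cannot be told apart.

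Of the 30 transporter genes, 25 averaged 0.5 FPKM or more and were tested. In sh-CEBPG#3 cells, SLC1A5, SLC43A1, SLC38A5, SLC7A6, SLC43A3 and SLC38A10 fell, while SLC6A6 and SLC38A7 rose. The count of 6 that fell was 10 with equal totals and 3 with no filter. Of all genes tested, 48.2% and 24.8% were called in either direction in these settings, and 42.2% in the main fit. With 1 library left out, the log2 fold changes of SLC7A6, SLC43A3 and SLC38A10 stayed between -0.28 and -0.16. Their calls were not kept in every such fit. The abundant exchange pair SLC3A2 and SLC7A5 did not pass the test. The 6 lower genes stand beside 23.8% of all genes tested that fell, and the 2 higher genes beside 18.5% that rose, so the transporters were not called more often than genes in general. None of the 25 passed the study's threshold (beyond 2-fold at an unadjusted p under 0.05) in limma, against 3.41% of all genes. The study applied this threshold with DESeq2 rather than to FPKM + 1, so its own calls can differ. An unadjusted p under 0.05 in limma was found for 10 of the 25, against 6139 of all 12142. The groups did not overlap for 16 of the 25, against 71.7% of all genes tested. The median log2 fold change was -0.09 for the transporters and -0.04 for all genes.

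**Figure D1:**
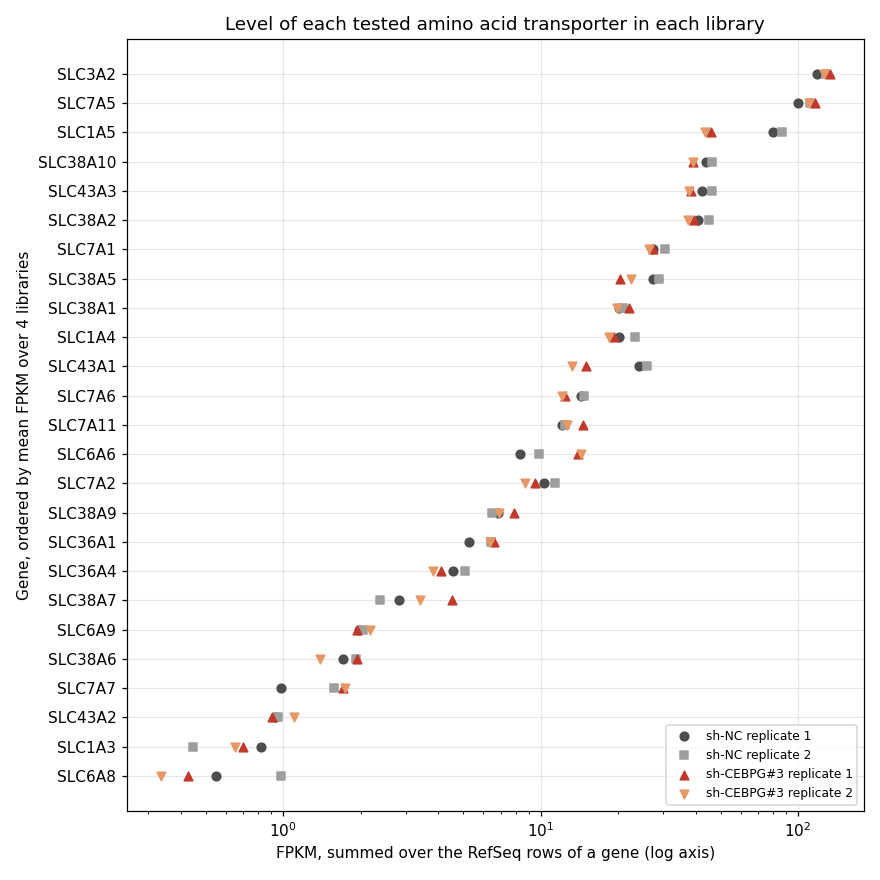
FPKM of the 25 tested transporter genes (rows) on a log axis, with 1 point per library and the genes ordered by mean level. SLC3A2 and SLC7A5 lie highest with overlapping groups, and for SLC1A5 and SLC43A1 both sh-CEBPG#3 points lie to the left of both sh-NC points.

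The transporter genes together had 616 and 669 FPKM in sh-NC and 597 and 570 FPKM in sh-CEBPG#3 cells. SLC3A2 and SLC7A5 made up 35.5% and 35.8% of this sum in sh-NC cells and 41.6% and 41.5% in sh-CEBPG#3 cells. The next in order of mean level were SLC1A5, SLC38A10, SLC43A3, SLC38A2, SLC7A1, SLC38A5, SLC38A1 and SLC1A4. At the low end of the tested genes were SLC1A3 and SLC6A8, and the betaine and GABA carrier SLC6A12 lay just under the filter with 0.409 and 0.285 FPKM in sh-NC and 0.564 and 0.563 FPKM in sh-CEBPG#3 cells. The other genes not tested were the heavy chain SLC3A1, the serotonin carrier SLC6A4, SLC6A16 and SLC7A10. None of these 4 exceeded 0.0944 FPKM in any library, and SLC7A10 is listed at 0 in both sh-CEBPG#3 libraries.

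SLC3A2, the heavy chain also known as CD98 (chr11:62856109-62888860), had 118 and 128 FPKM in sh-NC and 133 and 126 FPKM in sh-CEBPG#3 cells. The 2 groups overlap, and this was the most abundant transporter gene. Its log2 fold change came to 0.07 (standard error 0.07, adjusted p = 0.453 in limma), with a 95% interval from -0.09 to 0.24. SLC7A5, the LAT1 light chain that exchanges large neutral amino acids such as leucine (chr16:87830023-87869507), had 100.2 and 111 FPKM in sh-NC and 116 and 109.9 FPKM in sh-CEBPG#3 cells. These groups overlap as well. The log2 fold change came to 0.10 (standard error 0.08, adjusted p = 0.338 in limma), with a 95% interval from -0.07 to 0.27. Both intervals leave out a change of 1.5 times in either direction, but a small change cannot be told from none with 2 libraries per group. The ratio of SLC7A5 to SLC3A2 within a library was 0.846 and 0.865 in sh-NC and 0.871 and 0.869 in sh-CEBPG#3 cells.

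Of the other light chains, SLC7A11 is the cystine and glutamate exchanger xCT, which supplies cysteine for glutathione. It had 12.1 and 12.4 FPKM in sh-NC and 14.6 and 12.7 FPKM in sh-CEBPG#3 cells. Both sh-CEBPG#3 values were the higher ones, by a margin that did not pass the test (log2 fold change 0.14, standard error 0.09, adjusted p = 0.240 in limma). SLC7A6, the y+LAT2 light chain that exchanges arginine for neutral amino acids, had 14.3 and 14.7 FPKM in sh-NC and 12.4 and 12.2 FPKM in sh-CEBPG#3 cells. SLC7A6 fell by 0.22 on the log2 scale (standard error 0.08, adjusted p = 0.0446 in limma), just inside the threshold, and the most abundant of its transcripts by itself stood at 0.02 on that scale (adjusted p = 0.932 in limma). The call was also lost with no filter, with a block for the replicate number and without any 1 of the 4 libraries. With 1 library left out the log2 fold change stayed between -0.24 and -0.21. Of its annotated exon bases, 44.4% also lie in exons of SLC7A6OS on the other strand, and whether strand was used in counting is not given in the sources used here. SLC7A7, the related y+LAT1 light chain known from monocytes, had 0.986 and 1.58 FPKM in sh-NC and 1.71 and 1.74 FPKM in sh-CEBPG#3 cells, and did not pass the test (log2 fold change 0.27, adjusted p = 0.164 in limma). The noncoding transcript NR_040448 held 100% and 85.2% of the SLC7A7 FPKM in sh-NC and 52.4% and 100% in sh-CEBPG#3 cells. For SLC7A7 the control libraries decided the value, which was 0.46 without sh-NC replicate 2 (adjusted p = 0.0270 in limma) and 0.08 without sh-NC replicate 1 (adjusted p = 0.754). All listed light chains together amounted to 1.08 and 1.09 times the SLC3A2 level in sh-NC and to 1.09 and 1.08 times in sh-CEBPG#3 cells.

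SLC1A5, or ASCT2, exchanges glutamine and other neutral amino acids across the plasma membrane (chr19:46774883-46788594). It had 79.7 and 86.3 FPKM in sh-NC and 45.96 and 43.3 FPKM in sh-CEBPG#3 cells. Both sh-CEBPG#3 values were low, and the gap between the groups was wider than the spread within each. The means were 83.0 ± 4.66 FPKM and 44.6 ± 1.89 FPKM (SD, n = 2 each), so 53.8% of the control level remained. SLC1A5 fell by 0.88 on the log2 scale (standard error 0.08, adjusted p = 1.52e-05 in limma), the largest decrease among the transporters tested, and the range with 1 library left out was -0.94 to -0.82. Relative to SLC7A5 in the same library, SLC1A5 stood at 0.796 and 0.778 in sh-NC and at 0.397 and 0.394 in sh-CEBPG#3 cells. Nearly all of it came from NM_005628, the RefSeq transcript with 97.9% to 99.3% of the gene's FPKM in each library. An unnamed GENCODE gene on the other strand covers 23.4% of the exon bases of SLC1A5.

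The other SLC1 carriers did not pass the test. SLC1A4, or ASCT1, carries serine, alanine and cysteine, and had 20.1 and 23.3 FPKM in sh-NC and 19.2 and 18.4 FPKM in sh-CEBPG#3 cells. The groups did not overlap, and the difference on the log2 scale was -0.19 (standard error 0.09, adjusted p = 0.109 in limma). With equal totals or without sh-NC replicate 1 this gene passed, with log2 fold changes of -0.22 and -0.29 (adjusted p = 0.0228 and adjusted p = 0.0142 in limma). SLC1A3, a glutamate carrier of glia, was at most 0.821 FPKM in any library.

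Where ATF4 and a CEBP protein bind as a dimer they prefer a composite site whose core reads TGATGNAA. This core was searched on both strands in the RefSeq promoter windows of GRCh38.p14, which span 250 bases before to 50 bases after each listed start. Of the 30 transporter genes, 24 matched a window by symbol, with 42 windows between them. SLC3A1, SLC6A6, SLC6A12, SLC7A2, SLC7A11 and SLC43A3 had no entry. The core was found in 6 windows of 6 genes, which is 14.3% of the transporter windows against 3.62% of all 35116 windows, or 25% of the transporter genes against 4.46% of all genes. The 6 sites are shown because SLC1A5, the transporter that fell most, holds 1 of them. Each line gives 30 bases of the coding strand, with the core or its reverse complement in capitals:
SLC1A5: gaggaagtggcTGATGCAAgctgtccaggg
SLC1A4: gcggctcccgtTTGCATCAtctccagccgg
SLC1A3: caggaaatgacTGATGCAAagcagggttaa
SLC3A2: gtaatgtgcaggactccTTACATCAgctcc
SLC38A1: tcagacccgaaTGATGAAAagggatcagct
SLC7A1: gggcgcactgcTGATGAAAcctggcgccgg

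The SLC1A5 stretch lies on the minus strand at chr19:46784893-46784922. Its core begins 97 bases before the start of a shorter transcript and 3683 bases downstream of the start of the MANE Select transcript, in an intron of the latter. The shorter transcripts of SLC1A5, NM_001145145 and NM_001145144, had at most 1.04 FPKM in any library. The SLC1A4 stretch (plus strand, chr2:64989381-64989410) has its core beginning 7 bases before the MANE Select start and reaching the first base of exon 1. The SLC7A1 stretch (minus strand, chr13:29595663-29595692) lies at the same kind of place, with the core 7 bases downstream of the first base of exon 1. The SLC3A2 (plus strand, chr11:62881719-62881748) and SLC38A1 (minus strand, chr12:46266502-46266531) cores lie in introns of the MANE Select transcripts, 840 and 2523 bases from their starts. The SLC1A3 core (plus strand, chr5:36596357-36596386) lies 10238 bases upstream. Of these 6 genes 1 fell (SLC1A5), where 23.8% of all genes tested fell, so genes with the core were not called lower more often than genes in general. The other 5 did not pass the test, with log2 fold changes from -0.19 to 0.07. Whether a site bears on a change was not tested. Binding was not measured in these libraries.

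SLC43A1, or LAT3, is a uniporter of large neutral amino acids such as leucine and phenylalanine (chr11:57484534-57515702). It had 24.0 and 25.8 FPKM in sh-NC and 15.0 and 13.3 FPKM in sh-CEBPG#3 cells. Both sh-CEBPG#3 values were low, with no overlap. The means were 24.9 ± 1.26 FPKM and 14.2 ± 1.24 FPKM (SD, n = 2 each), and 56.8% of the control level remained. SLC43A1 fell by 0.78 on the log2 scale (standard error 0.09, adjusted p = 9.16e-05 in limma), with a range from -0.86 to -0.69 when 1 library was left out.

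SLC43A3, known as a nucleobase transporter rather than an amino acid carrier, had 42.4 and 46.2 FPKM in sh-NC and 38.3 and 37.7 FPKM in sh-CEBPG#3 cells. It fell by 0.22 on the log2 scale (standard error 0.08, adjusted p = 0.0423 in limma), and this call was kept in 6 of 12 alternatives. Its most abundant transcript NM_199329 by itself stood at -0.07 (adjusted p = 0.530 in limma), and the minor NM_014096 had 7.65 and 10.4 FPKM in sh-NC and 5.58 and 0.838 FPKM in sh-CEBPG#3 cells. A further annotated gene on the same strand shares 29.9% of its exon bases. SLC43A2, the LAT4 uniporter, lay between 0.908 and 1.11 FPKM in all 4 libraries.

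SLC38A5, or SNAT5, carries glutamine, histidine, serine and glycine in exchange for protons (chrX:48458544-48470260). It had 27.4 and 28.8 FPKM in sh-NC and 20.4 and 22.4 FPKM in sh-CEBPG#3 cells. Both sh-CEBPG#3 values were below both controls. SLC38A5 fell by 0.38 on the log2 scale (standard error 0.08, adjusted p = 0.00411 in limma), and 76.1% of the control level remained. SLC38A10 had 43.7 and 46.1 FPKM in sh-NC and 38.9 and 39.0 FPKM in sh-CEBPG#3 cells, and fell by 0.20 on the log2 scale (standard error 0.07, adjusted p = 0.0475 in limma), a call kept in 6 of 12 alternatives.

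SLC38A7, or SNAT7, exports glutamine and asparagine from the lysosome (chr16:58665109-58684770). It had 2.81 and 2.38 FPKM in sh-NC and 4.55 and 3.42 FPKM in sh-CEBPG#3 cells. Both sh-CEBPG#3 values were high but far apart, and the log2 fold change came to 0.47 (standard error 0.13, adjusted p = 0.0162 in limma). Without sh-CEBPG#3 replicate 1, the library with the higher value, it was 0.30 and the call was lost. With no filter the call was lost as well (adjusted p = 0.0918 in limma). Its most abundant transcript NM_018231 had 1.72 and 1.58 FPKM in sh-NC and 3.88 and 1.85 FPKM in sh-CEBPG#3 cells. By itself it did not pass (0.49, adjusted p = 0.242 in limma). The other, NM_001308384, had 1.08 and 0.792 FPKM in sh-NC and 0.662 and 1.56 FPKM in sh-CEBPG#3 cells.

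The 4 other SLC38 genes did not pass the test. SLC38A2, or SNAT2, a carrier of neutral amino acids that rises when amino acids are short, had 41.0 and 44.97 FPKM in sh-NC and 39.6 and 37.2 FPKM in sh-CEBPG#3 cells. Its log2 fold change came to -0.16 (standard error 0.08, adjusted p = 0.132 in limma), and it passed with quantile normalization (-0.17, adjusted p = 0.0162), under equal totals (-0.18, adjusted p = 0.0128) and without sh-NC replicate 1 (-0.22, adjusted p = 0.0372). SLC38A1, or SNAT1, a glutamine carrier, had 20.1 and 20.8 FPKM in sh-NC and 21.98 and 19.8 FPKM in sh-CEBPG#3 cells, with overlapping groups. SLC38A9, the lysosomal arginine sensor upstream of mTORC1, had 6.85 and 6.47 FPKM in sh-NC and 7.86 and 6.86 FPKM in sh-CEBPG#3 cells, and did not pass (0.12 on the log2 scale, adjusted p = 0.325 in limma). SLC38A6 was at a similar level in both groups when its transcripts were summed, with 1.71 and 1.92 FPKM in sh-NC and 1.94 and 1.39 FPKM in sh-CEBPG#3 cells.

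SLC6A6 imports taurine, an osmolyte and antioxidant amino sulfonic acid (chr3:14402576-14489349). It had 8.32 and 9.88 FPKM in sh-NC and 14.0 and 14.4 FPKM in sh-CEBPG#3 cells. Both sh-CEBPG#3 values were high and close to each other. The means were 9.10 ± 1.10 FPKM and 14.2 ± 0.288 FPKM (SD, n = 2 each), which is 1.56 times the control level. The log2 fold change came to 0.59 (standard error 0.10, adjusted p = 0.000809 in limma), the largest increase among the transporters tested, with a range from 0.48 to 0.71 when 1 library was left out. Tested by its most abundant transcript alone, SLC6A6 did not pass (0.20, adjusted p = 0.336 in limma).

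Of the other tested SLC6 genes, SLC6A9, the glycine carrier GlyT1, lay between 1.93 and 2.17 FPKM in all libraries. The creatine carrier SLC6A8 had 0.549 and 0.982 FPKM in sh-NC and 0.429 and 0.334 FPKM in sh-CEBPG#3 cells. Its values were low and the control libraries far apart, and it did not pass the test (log2 fold change -0.34, adjusted p = 0.111 in limma). Without sh-NC replicate 1 SLC6A8 passed at -0.52 (adjusted p = 0.0208 in limma), and without sh-NC replicate 2 it stood at -0.17 (adjusted p = 0.539). A pseudocount of 0.1 or 0.01 gave -0.81 and -0.94, neither of which passed.

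The cationic carriers and the proton-coupled SLC36 carriers did not pass the test either. SLC7A1, or CAT1, the main arginine and lysine importer of many cells, had 27.2 and 30.4 FPKM in sh-NC and 27.3 and 26.3 FPKM in sh-CEBPG#3 cells, with overlapping groups (log2 fold change -0.10, 95% interval -0.28 to 0.08). SLC7A2, or CAT2, had 10.3 and 11.4 FPKM in sh-NC and 9.49 and 8.69 FPKM in sh-CEBPG#3 cells. These groups did not overlap, and the log2 fold change came to -0.23 (standard error 0.09, adjusted p = 0.0654 in limma), the smallest adjusted p among the genes that did not pass. SLC7A2 passed under quantile normalization, under equal totals and when sh-NC replicate 1 was left out (-0.18, -0.25 and -0.29, adjusted p = 0.0461, adjusted p = 0.0166 and adjusted p = 0.0391). SLC36A1, the lysosomal carrier PAT1, ranged from 5.28 to 6.62 FPKM over the 4 libraries. SLC36A4, or PAT4, had 4.56 and 5.11 FPKM in sh-NC and 4.09 and 3.81 FPKM in sh-CEBPG#3 cells. Its groups did not overlap, and the log2 fold change came to -0.24 (standard error 0.10, adjusted p = 0.0866 in limma), which passed with equal totals (-0.26, adjusted p = 0.0342). In all, the 17 tested genes that did not pass had log2 fold changes from -0.34 to 0.27.

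**Figure D2:**
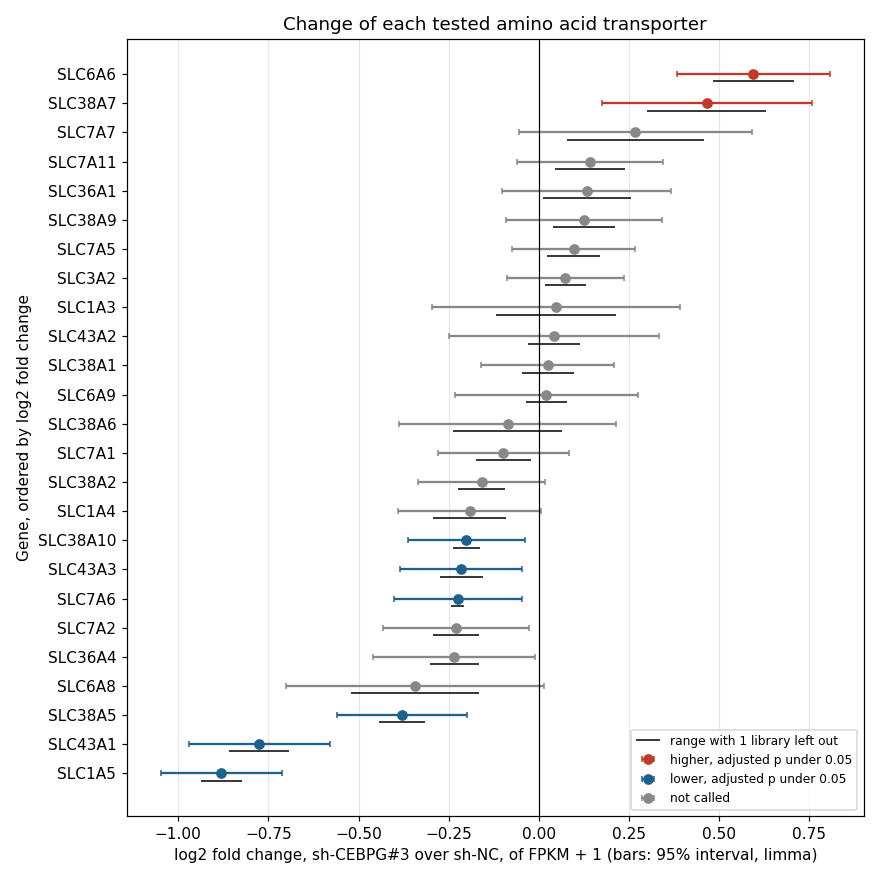
Log2 fold change of FPKM + 1 (sh-CEBPG#3 over sh-NC) for the 25 tested transporter genes, with 95% intervals from limma as bars and the range over fits that leave out 1 library as a black line below each point. SLC1A5 (-0.88) and SLC43A1 (-0.78) lie apart at the lower end, SLC6A6 (0.59) is at the upper end, and the intervals of SLC3A2 and SLC7A5 cover 0.

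Of the 30 genes, 21 are listed with more than 1 RefSeq transcript. When transcripts were tested by themselves, 41 transporter transcripts averaged 0.5 FPKM or more, and 3 fell and 0 rose at an adjusted p under 0.05 in limma, where 4.08% of all 18624 transcripts tested fell and 4.16% rose. A further 9 had an unadjusted p under 0.05, which makes 12, but the share of all transcripts that did so was not counted. The 3 that fell were NM_005628 of SLC1A5, NM_001198810 of SLC43A1 and NM_153811 of SLC38A6. With a pseudocount of 0.1 the number called was 2 and with equal totals 8, and the shares of all transcripts called in these settings were not counted. None of the 3 calls was kept with 1 library left out. How the authors divided reads among overlapping transcripts is not given in the sources used here, so that values of single transcripts are less certain than those of genes.

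For SLC43A1, NM_001198810 had 9.33 and 9.99 FPKM in sh-NC and 3.96 and 4.21 FPKM in sh-CEBPG#3 cells (log2 fold change -1.07, adjusted p = 0.0198 in limma). Its other transcript NM_003627 had 14.7 and 15.8 FPKM in sh-NC and 11.1 and 9.06 FPKM in sh-CEBPG#3 cells (-0.56, adjusted p = 0.0716 in limma). Both were lower in both sh-CEBPG#3 libraries, and the difference between them was not tested.

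In SLC38A6 the transcripts differed in direction, and the groups overlapped for their sum. NM_153811 had 1.51 and 1.45 FPKM in sh-NC and 0.225 and 0.0697 FPKM in sh-CEBPG#3 cells (log2 fold change -1.11, adjusted p = 0.0493 in limma). It held 87.9% and 75.4% of the gene's FPKM in sh-NC and 11.6% and 5.03% in sh-CEBPG#3 cells. The noncoding transcript NR_033344 had 0.207 and 0.304 FPKM in sh-NC and 0.972 and 1.01 FPKM in sh-CEBPG#3 cells (0.67, adjusted p = 0.115 in limma). The third, NM_001172702, was under the filter, with 0 and 0.168 FPKM in sh-NC and 0.746 and 0.307 FPKM in sh-CEBPG#3 cells. All these values are low.

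In SLC38A10 and SLC7A6, the minor transcript was the lower one in sh-CEBPG#3 cells and the major one was not. NM_138570 of SLC38A10 had 11.4 and 14.9 FPKM in sh-NC and 6.80 and 7.73 FPKM in sh-CEBPG#3 cells (log2 fold change -0.77, adjusted p = 0.0646 in limma), while the major NM_001037984 lay between 31.2 and 32.3 FPKM in all 4 libraries. NM_001076785 of SLC7A6 had 3.05 and 5.07 FPKM in sh-NC and 1.32 and 2.10 FPKM in sh-CEBPG#3 cells (-0.89, adjusted p = 0.139 in limma), and the major NM_003983 between 9.64 and 11.3 FPKM. In SLC6A6, NM_003043 had 2.40 and 3.002 FPKM in sh-NC and 5.37 and 6.74 FPKM in sh-CEBPG#3 cells (0.93, adjusted p = 0.0535 in limma). The most abundant SLC6A6 transcript, the noncoding NR_103507, had 5.12 and 6.65 FPKM in sh-NC and 6.75 and 6.98 FPKM in sh-CEBPG#3 cells.

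The transporters were set beside 4 lists of related genes. Among the carriers known as ATF4 targets, 8 of 9 were listed, all from the transporter genes above. Of these 1 fell (SLC1A5) and 0 rose, against 23.8% and 18.5% of all genes, and 7 did not pass, namely SLC1A4, SLC3A2, SLC6A9, SLC7A1, SLC7A5, SLC7A11 and SLC38A2. The median log2 fold change was -0.04, as for all genes tested.

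Of 22 other genes of the amino acid response, 5 fell and 5 rose, with a median of -0.02. These counts lie near the 23.8% and 18.5% of all genes that did so. The lower ones included JDP2, a bZIP repressor (log2 fold change -0.91), and the transsulfuration enzymes CBS (-0.57) and CTH (-0.42), each at an adjusted p in limma no higher than 0.0407. The higher ones included the stress proteins NUPR1 (0.72) and ATF3 (0.41) and the glutathione-degrading enzyme CHAC1 (0.28), each at an adjusted p no higher than 0.0196. ATF4 itself had 259 and 269 FPKM in sh-NC and 269 and 256 FPKM in sh-CEBPG#3 cells, and its log2 fold change of -0.01 did not pass (adjusted p = 0.924 in limma).

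Of 27 tested genes of lysosomal amino acid sensing, 10 rose and 4 fell, against 18.5% and 23.8% of all genes, with a median of 0.07. The largest increases were those of BMT2, also known as the S-adenosylmethionine sensor SAMTOR (log2 fold change 0.81), the Rag GTPase RRAGB (0.70) and SESN1, a sestrin (0.62), each at an adjusted p in limma no higher than 0.000708. The largest decreases were those of the GATOR1 subunit NPRL3 (-0.38), the KICSTOR subunit KPTN (-0.35) and the GATOR2 subunit WDR24 (-0.31), each at an adjusted p no higher than 0.0319.

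Of 18 tested carriers outside these families, 4 rose and 3 fell, with a median of 0.03, where 18.5% and 23.8% of all genes did so. SLC15A3, a lysosomal carrier of histidine and peptides, had 8.71 and 10.4 FPKM in sh-NC and 19.8 and 21.1 FPKM in sh-CEBPG#3 cells (log2 fold change 1.03, adjusted p = 2.81e-05 in limma). MFSD12, a lysosomal cysteine importer (0.75), and SLC17A5, the lysosomal sialic acid exporter (0.64), also rose, each at an adjusted p no higher than 0.000588. The mitochondrial glycine carrier SLC25A38 (-0.68), the mitochondrial basic amino acid carrier SLC25A29 (-0.62) and SLC17A9 (-0.66), which carries nucleotides, fell, each at an adjusted p no higher than 0.000798.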

How the data were processed

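RNA-seq of 2 sh-NC and 2 sh-CEBPG#3 libraries of MV4-11 cells was used. The authors mapped filtered reads to hg38 with HISAT2 2.0.5 (per the submitters' processing notes) and deposited FPKM values per RefSeq transcript and library. The program that computed FPKM is not given in the sources used here. Of 28780 transcripts, 28581 had values. FPKM was summed by gene symbol, genes averaging 0.5 FPKM or more were kept, and log2(FPKM + 1) was fitted with limma 3.58.1 in R 4.3.3 (eBayes with a trend, no block, Benjamini-Hochberg adjustment over all genes). On simulated data of 12142 genes, 100% of 50 genes at each log2 change of -1 and 1 were called. The changed genes were drawn only from those with a mean log2(FPKM + 1) above 2 in sh-NC, so lower genes such as SLC38A7 were not covered. In the simulation 11942 genes were unchanged, whereas 42.2% of the genes tested were called in the data. The tested transporters had log2 fold changes from -0.88 to 0.59, and how often changes of that size are called was not tested.

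With 2 libraries per group an exact permutation test cannot give a p under 0.333, and no label says whether they are separate infections, so p-values measure the spread between these libraries. The transporters and lists were chosen with earlier results of these data known. Genes with an adjusted p under 0.05 and a log2 change of at least 0.58, the 10 most abundant, SLC3A2, the light chains and CEBPG are given in full, and the 3 largest changes per direction in each further list. SLC38A7, SLC38A6, SLC38A9, SLC36A4, SLC7A2, SLC6A8, SLC6A12, ATF4 and the single transcripts were named after their values were seen. The alternatives changed the pseudocount (0.1 or 0.01), the filter (none, or 1 FPKM), the scaling (quantile normalization or equal totals), added a replicate block, or used the transcript with the highest mean, and each library was left out in turn. Sites and overlaps come from RefSeq windows and GENCODE on GRCh38 (Python 3.11.15).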

Additional observations from a re-analysis of the deposited data

How the results depend on the processing

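The decreases of SLC1A5, SLC43A1 and SLC38A5 passed in all 12 alternatives, and the increase of SLC6A6 in 11 of 12. SLC38A7 passed in 9, SLC38A10 and SLC43A3 in 6 and SLC7A6 in 5. The number of lower transporters was 6, and 3 with no filter, 10 with equal totals and 3 with the replicate block. Of all genes tested, 42.2% were called in either direction, and 24.8%, 48.2% and 39.2% in these 3 settings. With the most abundant transcript of each gene this share was 23.9%. With 1 library left out the log2 fold changes of the 6 lower transporters ranged from -0.94 to -0.16. The calls of SLC7A6, SLC43A3 and SLC38A10 were not kept in every such fit. The number of higher ones was 2, and 1 with no filter, 0 with the most abundant transcript, and 1 to 3 with 1 library left out, the 1 being without sh-CEBPG#3 replicate 1. With the most abundant transcript 1 gene (SLC38A6) passed 2-fold. The labels do not say whether same-numbered libraries are paired. Their deviations had a correlation of 0.0606 across genes, which cannot tell whether they were prepared together.

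The number of transporter transcripts called was 3, and in settings added after the data were seen 8 with equal totals and 0 with the replicate block. A pseudocount of 0.1 gave 2. The shares of all transcripts called in these settings were not counted. None of the 3 calls was kept with 1 library left out. With fewer libraries there are fewer residual degrees of freedom, but adjusted p-values were not always larger for that. With the replicate block, which also leaves fewer, SLC1A5 had adjusted p = 6.66e-12 in limma, against 1.52e-05 in the main fit. Adjusted p-values and calls from fits with a library left out or a block are therefore not comparable with those of the main fit, wherever they are given. The list medians ranged with 1 library left out from 0.0233 to 0.106 for lysosomal sensing and from -0.00047 to 0.0992 for carriers of other families. Log2 fold changes near 0 changed sign, none of them called in either setting except SLC7A6. These were SLC3A2 (-0.0155, quantile normalization), SLC38A1 (-0.00067, equal totals), and, with the most abundant transcript, SLC7A6 (0.0158) and SLC43A2 (-0.28). With 1 library left out the ranges were -0.12 to 0.21 for SLC1A3, -0.0372 to 0.0768 for SLC6A9, -0.048 to 0.10 for SLC38A1, -0.24 to 0.0647 for SLC38A6 and -0.0293 to 0.113 for SLC43A2. For all of these the cause was not tested. In each such fit the lone remaining library of a group is assumed to vary like the other group.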

Other observations

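The table also lists 2 pseudogene copies of SLC7A5, which can share reads with it. SLC7A5P1 had 6.33 and 5.42 FPKM in sh-NC and 3.88 and 3.67 FPKM in sh-CEBPG#3 cells, and fell by 0.52 on the log2 scale (standard error 0.10, adjusted p = 0.00275 in limma). SLC7A5P2 had 1.92 and 1.39 FPKM in sh-NC and 1.28 and 1.01 FPKM in sh-CEBPG#3 cells, a log2 fold change of -0.30 that did not pass (adjusted p = 0.111 in limma). Both lie lower in sh-CEBPG#3 cells, while SLC7A5 itself, at a far higher level, had overlapping groups. The antisense transcript SLC7A11-AS1 had 0.223 and 0.215 FPKM in sh-NC and 0.151 and 0.152 FPKM in sh-CEBPG#3 cells, and was under the filter.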
